A study of Mus musculus with 4 samples.

Results

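The genes described here are 46 genes of DNA damage signalling and repair, chosen by name from a table of 23309 gene symbols, and all 46 were listed in it. They were placed by their known roles in 5 groups: end joining (6 genes), homologous recombination with the Fanconi pathway (17), PARP signalling and base excision (7), mismatch and nucleotide excision (7), and checkpoint signalling (8). Kin, which encodes a zinc finger protein that binds DNA and RNA, fits none of these groups and is given by itself. The RNA came from mouse embryonic stem cells of strain 129/Ola at passages 10 to 20, either wild type or Chd2 mut/mut, that is, mutated on both copies of the chromatin remodeler gene Chd2. All of them were grown on gelatin in serum and LIF, the cytokine that keeps them undifferentiated. The labels give 2 libraries per genotype, marked lot 1 and lot 2. Their titles call the mutant a knockout (Chd2KO). They do not state the DNA change, how many clones were used or whether the lots were separate cultures, so the q-values may rest on technical spread alone.

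A double-strand break can be closed by end joining, in which the ends are bound, trimmed and ligated, or by homologous recombination, in which a resected end copies the sister chromatid. Damage to single bases is removed by base excision, bulky lesions by nucleotide excision and replication errors by mismatch repair, while the checkpoint kinases ATM and ATR signal damage to the cell cycle. Embryonic stem cells divide fast and are known to make much use of homologous recombination. CHD2 has itself been linked to break repair: in earlier work on other cells it was recruited to breaks by PARP1 and favoured end joining.

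No gene of the 46 was called different between the genotypes. The authors' deposited table holds 1 FPKM value per gene and genotype (sequenced fragments scaled for transcript length and library size) together with a q-value and a call for each gene. It called 81 genes at a q-value under 0.05, and 0 of the 46. Over the 11276 genes whose q-value was below 1, the share called was 0.718%. The lowest q-value among the 46 was 0.308, for Rnf168 in the authors' deposited table, and 235 genes of the table had a lower one. The smallest log2 fold change that the authors' deposited table called, in either direction, was 0.51, for Pdzd4 (named for that reason alone), and 0 of the 46 genes reached this size. Unadjusted p-values and values per library were not analysed here, and library depth is unknown. No interval can therefore be set on any of the differences below, and a missing call does not show that a level was equal in the genotypes.

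Chd2 itself was called. It was at 10.2 FPKM in wild-type cells and 5.69 FPKM in mutant cells, with a q-value of 0.0103 in the authors' deposited table, so that 55.9% of the RNA level remained under a knockout title. Among the 8 stem cell markers examined, the lowest values were 16.7 FPKM in wild-type cells and 18.1 FPKM in mutant cells. On the log2(FPKM + 1) scale, as the mutant value minus the wild-type value, 7 of the 8 lay above 0, with a median of 0.15, and none was called. The 5 primitive endoderm markers were under 1 FPKM in both genotypes, and of 5 markers each of fibroblasts, neuroectoderm and mesoderm, 1, 4 and 2 had a mean of 1 FPKM or more, none of them called. The most abundant were Tubb3 (neuroectoderm, 50.7 FPKM in wild-type and 49.1 FPKM in mutant cells) and Thy1 (fibroblasts, 14.2 and 11.5 FPKM). The lowest q-value of these lists in the authors' deposited table was 0.116, for Meox1 (mesoderm, 2.44 and 1.24 FPKM). In bulk RNA, fewer cells of a type and less RNA per cell cannot be told apart. A list of 20 S phase genes (replication and nucleotide synthesis genes such as the Mcm helicase subunits) was also examined. Of these, 18 had a lower value in the mutant and none was called. Their median difference was -0.14 on the same scale, and their median wild-type level was 120 FPKM. Among all genes with a mean of 20 FPKM or more, 62.7% lay below 0. The share called over the table, 0.718%, also stands beside the absence of calls in these marker lists. The part of either marker list in the small differences of the repair genes was not tested.

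Repair genes are in part controlled by E2F factors, which drive genes of S phase, so their promoters were searched for E2F words. RefSeq promoters (build GRCm38.p6, 250 bases before to 50 after the start) were found by symbol for 36 of the 46 genes. The words TTTGGCGC, TTTCCCGC or TTTCGCGC occurred on either strand in 6 of the 36, or 16.7%. The share was 4.52% of 7985 genes whose mean FPKM was 1 or more and 2.12% of 27025 genes with a promoter in the table. Of the 5 motifs searched, this one had the highest ratio of the share in the 36 promoters to that in the 7985, and the stretches that hold the match are printed here for that reason. They run 5′ to 3′ on the strand of the gene, with the match in capitals (GCGGGAAA is TTTCCCGC read on the other strand). Rad51c has 2 annotated starts, each with a match. They are numbered by position on the chromosome, so on the minus strand the first is the downstream start.
Brca2, chr5:150522427-150522486, plus strand: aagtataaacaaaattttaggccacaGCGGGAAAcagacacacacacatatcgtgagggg
Chek2, chr5:110839805-110839864, plus strand: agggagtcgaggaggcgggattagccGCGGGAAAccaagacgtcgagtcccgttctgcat
Mdc1, chr17:35841456-35841515, plus strand: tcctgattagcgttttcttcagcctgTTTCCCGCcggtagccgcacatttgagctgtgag
Msh6, chr17:87975039-87975079, plus strand: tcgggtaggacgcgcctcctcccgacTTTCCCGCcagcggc
Rad51c first start, chr11:87404477-87404521, minus strand: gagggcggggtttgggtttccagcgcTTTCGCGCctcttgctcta
Rad51c second start, chr11:87404926-87404985, minus strand: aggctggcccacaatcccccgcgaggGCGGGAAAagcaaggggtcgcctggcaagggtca
Xrcc6, chr15:82016297-82016356, plus strand: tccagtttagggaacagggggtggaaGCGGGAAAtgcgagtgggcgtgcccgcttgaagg

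The match lay 168 bases before the start in Brca2 and 152 bases before it in Chek2, and within 46 bases of a start in the other genes. The 6 genes with a match had a median difference of -0.033, against -0.0014 for the 30 without one, and 4 of the 6 lay below 0. The 4 (Chek2, Mdc1, Msh6 and Xrcc6) had means of 20 FPKM or more, and Brca2 and Rad51c, above 0, had lower means. At 20 FPKM or more, 14 of the 16 repair genes and 62.7% of all genes kept lay below 0. Xrcc6 moved above 0 with quantile normalization. The parts of level and motif were not tested. This is a description of few genes, with no test. The other words searched were nearer to the share among expressed genes. CCAAT (NFY) was found in 55.6% of the 36 promoters and 43.8% of those of the 7985 genes. GGGCGG (Sp1) was found in 77.8% and 71.5%, CCGGAAG (ETS) in 27.8% and 22.2%, and the CRE word TGACGTCA in 5.56% and 3.94%. Words were searched separately on both strands, so a base may count towards more than 1 of them. A match is not a shown binding site.

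All 46 genes had a mean FPKM over the genotypes of 1 or more, so none was lost to a filter on low values. Their levels in wild type ran from 2.37 FPKM (Wrn) to 312 FPKM (H2afx), with a median of 13.1 FPKM. In the mutant they ran from 2.18 FPKM (Wrn) to 359.95 FPKM (H2afx), with a median of 12.5 FPKM. The order of the genes was nearly the same in both. H2afx, Parp1, Msh6, Ung, Xrcc5, Xrcc6 and Apex1 were the 7 most abundant in each genotype, and across the 46 genes the levels had a Spearman correlation of 0.994, as a description of genes that share their libraries.

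**Figure D1:**
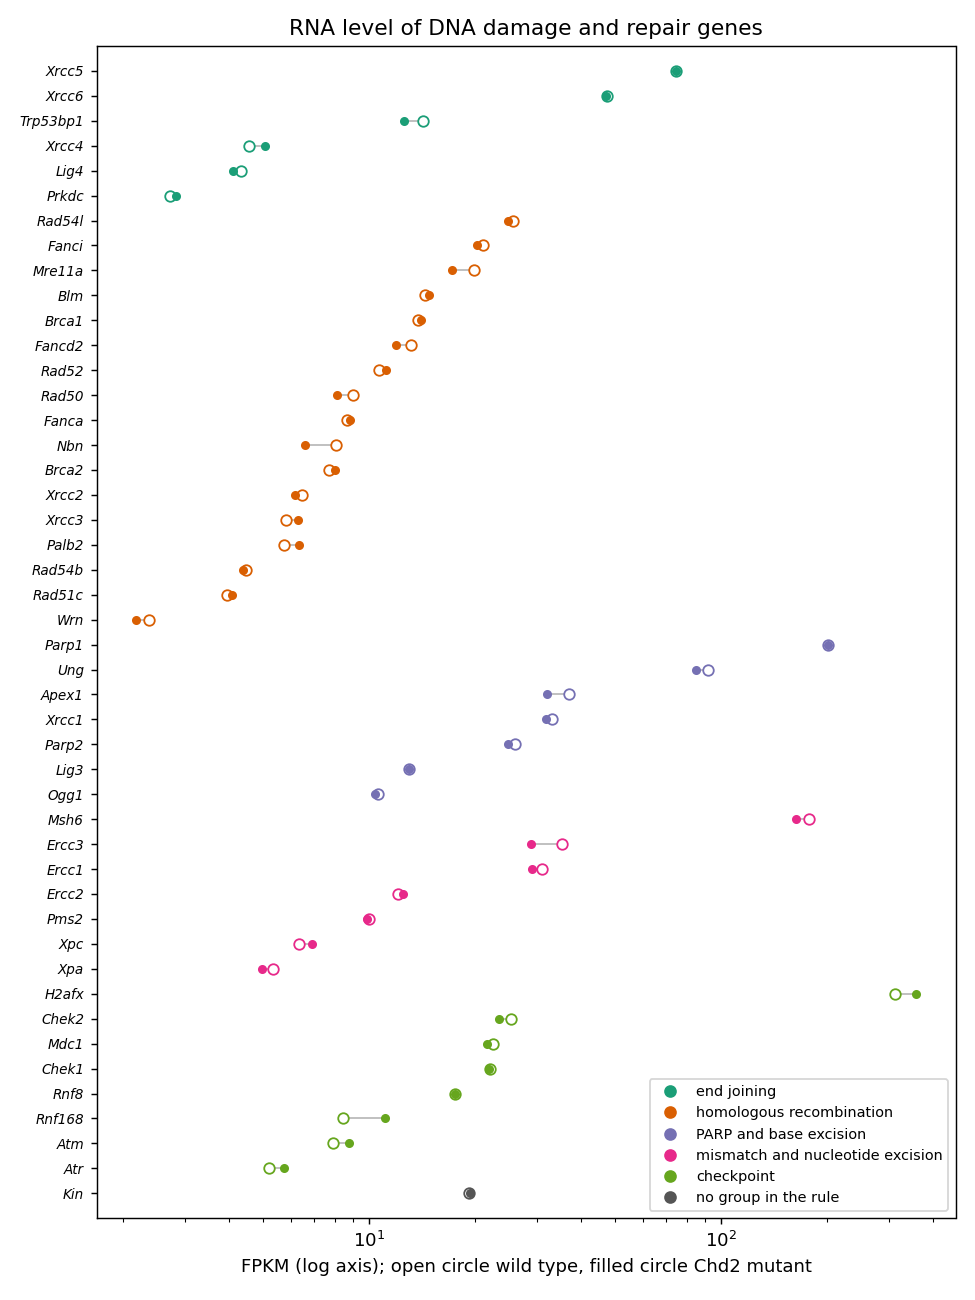
RNA level of each of the 46 genes in wild type (open circles) and Chd2 mutant (filled circles), in FPKM on a log axis, grouped by colour and ordered by wild-type level. Each circle is 1 value of the authors over the libraries of a genotype, without an error. The circles of most genes touch, and the widest gap is that of Rnf168 (8.46 and 11.1 FPKM).

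Differences were small on the log scale. As log2(FPKM + 1) in the mutant minus that in wild type, they ran from -0.28 (Ercc3) to 0.36 (Rnf168), and 26 of 46 genes (56.5%) lay below 0, beside 50.4% of the 10766 genes whose mean FPKM was 1 or more (the genes kept). The median difference was -0.017, beside -0.0012 over those 10766 genes. The median size of a difference without regard to its sign was 0.062 for the 46 genes and 0.10 for the 10766. A size of at least 0.2, about 1.15-fold, a step chosen after the values were seen, was reached by 5 of the 46 genes: Rnf168, H2afx, Ercc3, Nbn and Apex1. Among all genes, 21.1% of the genes kept reached it. Rnf168 was the only gene of the 46 outside the central range of all genes kept, whose 5th and 95th percentiles were -0.29 and 0.29.

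**Figure D2:**
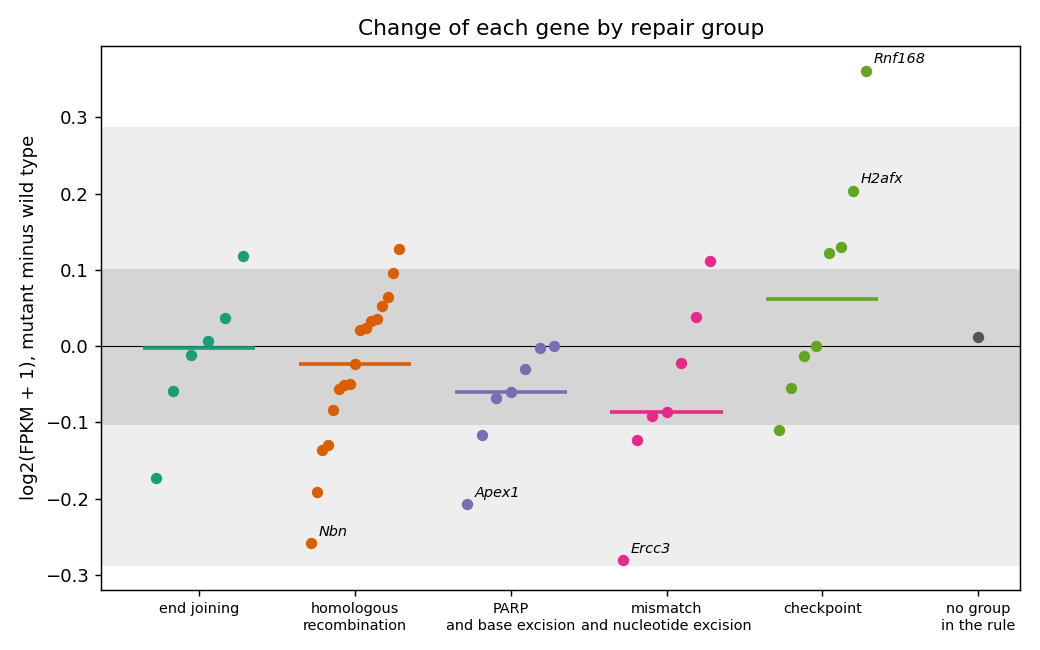
Mutant minus wild-type log2(FPKM + 1) for each of the 46 genes by repair group. Horizontal bars are group medians, the dark band holds the middle 50% of all 10766 genes kept (-0.10 to 0.10) and the light band runs from the 5th to the 95th percentile (-0.29 to 0.29). The 5 genes at or beyond 0.2 are named.

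The end joining genes were divided evenly, 3 below 0 and 3 above, with a median of -0.0029. Ku, the ring of XRCC5 (KU80) and XRCC6 (KU70) that first binds a broken end, was encoded by the most abundant RNAs of the 6 genes. Xrcc5 was at 74.5 FPKM in wild-type cells and 74.8 FPKM in mutant cells, and Xrcc6 at 47.6 and 47.2 FPKM. The ratio of Xrcc5 to Xrcc6 was 1.57 in wild-type cells and 1.59 in mutant cells. Prkdc, the kinase that Ku recruits, was far below its partners in both genotypes, at 2.73 and 2.83 FPKM. XRCC4 and ligase IV join the ends together. Xrcc4 was at 4.58 FPKM in wild-type cells and 5.06 FPKM in mutant cells, and Lig4 at 4.33 and 4.11 FPKM. Trp53bp1, whose protein 53BP1 shields ends from resection, had the widest difference of the group, at 14.3 and 12.6 FPKM, or 87.9% of the wild-type level.

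Among the 17 genes of homologous recombination, 9 lay below 0 and 8 above, with a median of -0.024. The MRN complex senses a break and starts resection, and the values of its 3 subunits were all lower in the mutant. These 3 genes were not one of the 5 groups. All had means under 20 FPKM, where 43.6% of all genes kept lay below 0. Mre11a was at 19.9 FPKM in wild-type cells and 17.3 FPKM in mutant cells, Rad50 at 9.03 and 8.13 FPKM, and Nbn at 8.06 and 6.57 FPKM. The mutant level of Nbn was 81.6% of the wild-type level, with a log2 fold change of -0.29 and a q-value of 0.788 in the authors' deposited table. These 3 genes stayed below 0 with quantile normalization, with the median of all genes set to 0 and after removal of the trend on transcript length. These settings rescale the same 1 value per genotype, so they do not measure spread between libraries. Of all genes kept, 12.9% had a difference at least as large as that of Nbn, 22.7% as that of Mre11a and 37.6% as that of Rad50.

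The genes that act on resected DNA lay on either side of 0, and the difference of Palb2 was 0.13. Brca1, which promotes resection, was at 13.8 FPKM in wild-type cells and 14.1 FPKM in mutant cells. Brca2, which acts after resection, was at 7.71 and 8.03 FPKM, and Palb2, the bridge between them, at 5.73 and 6.35 FPKM. Rad51c, Xrcc2 and Xrcc3 encode accessory factors of strand exchange. Rad51c was at 3.96 FPKM in wild-type cells and 4.08 FPKM in mutant cells, Xrcc2 at 6.47 and 6.18 FPKM, and Xrcc3 at 5.83 and 6.2999 FPKM. Rad52, which anneals single strands, was at 10.7 and 11.2 FPKM. RAD54L and RAD54B are motor proteins of strand exchange, and Rad54l was 5.75 times as abundant as Rad54b in wild type and 5.66 times in the mutant. Rad54l was at 25.7 FPKM in wild-type cells and 24.8 FPKM in mutant cells, and Rad54b at 4.47 and 4.38 FPKM.

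The RecQ helicase gene Blm was at 14.4 FPKM in wild-type cells and 14.8 FPKM in mutant cells. Wrn, of the same helicase family, was the least abundant of the 46, at 2.37 and 2.18 FPKM. The Fanconi pathway unhooks DNA crosslinks. Fanca, of its core ubiquitin ligase, was at 8.67 FPKM in wild-type cells and 8.83 FPKM in mutant cells. Fancd2 and Fanci encode the clamp that this ligase modifies. Fancd2 was at 13.2 and 11.9 FPKM and Fanci at 21.1 and 20.3 FPKM, so that the ratio of Fanci to Fancd2 was 1.60 in wild-type cells and 1.70 in mutant cells.

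In the PARP and base excision group 6 of 7 genes lay below 0, with a median of -0.060. Among all genes kept, 50.4% lay below 0, and 62.7% of those with a mean of 20 FPKM or more. PARP1, the enzyme that marks breaks with poly(ADP-ribose), was encoded by the second most abundant RNA of the 46. Parp1 was at 202 FPKM in wild-type cells and 201 FPKM in mutant cells, or 99.8% of the wild-type level, and it lay above 0 with quantile normalization (0.063). Its relative Parp2 was at 26.03 and 24.8 FPKM. XRCC1, the scaffold of single-strand break repair, holds ligase III. Xrcc1 was at 33.2 FPKM in wild-type cells and 31.8 FPKM in mutant cells, and Lig3 at 12.97 and 12.98 FPKM. Ung, which removes uracil, was at 92.1 and 84.9 FPKM, and Ogg1, which removes oxidised guanine, at 10.6 and 10.4 FPKM. Apex1, the endonuclease that cuts at the emptied site, was at 37.2 FPKM in wild-type cells and 32.1 FPKM in mutant cells. The authors' deposited table gives Apex1 a log2 fold change of -0.21 and a q-value of 0.998. In GENCODE M21 annotation 61.7% of the exonic bases of Apex1 are shared with Tmem55b on the opposite strand, which was at 46.4 and 41.5 FPKM. The labels do not say that reads were assigned by strand, so these 2 genes may share reads.

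In the mismatch and nucleotide excision group 5 of 7 genes lay below 0, with a median of -0.086, beside the same 50.4% and 62.7%. Msh6, a mismatch recognition gene, was at 178 FPKM in wild-type cells and 163 FPKM in mutant cells. Pms2, the mismatch repair endonuclease, was at 10.02 and 9.86 FPKM, so that the ratio of Msh6 to Pms2 was 17.7 and 16.6. XPC and XPA recognise and verify bulky lesions, and their genes lay on opposite sides of 0. Xpc was at 6.31 FPKM in wild-type cells and 6.90 FPKM in mutant cells, and Xpa at 5.35 and 4.98 FPKM. Ercc1, a subunit of the nuclease that cuts beside the lesion, was at 31.1 and 29.1 FPKM. ERCC2 and ERCC3 are the helicase and translocase subunits of TFIIH, which opens DNA in repair and at promoters. Ercc2 was at 12.1 FPKM in wild-type cells and 12.5 FPKM in mutant cells, while Ercc3 was at 35.3 and 28.9 FPKM. The ratio of Ercc3 to Ercc2 was 2.91 in wild-type cells and 2.31 in mutant cells. Ercc3 had the lowest difference of the 46 genes. In the mutant Ercc3 was at 81.8% of the wild-type level, with a log2 fold change of -0.29 and a q-value of 0.662 in the authors' deposited table. Of all genes kept, 10.5% had a difference at least as large.

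The checkpoint group had a median of 0.061, with 3 of 8 genes below 0, while the medians of the other 4 groups lay below 0. After removal of the length trend its median was 0.027, with 4 of 8 genes below 0. With quantile normalization the end joining median also lay above 0 (0.029). Among 20 further checkpoint genes, part of the other pathway genes below, 12 lay below 0, and their median was -0.023. ATM and ATR are the apical kinases of the damage response. Atm was at 7.92 FPKM in wild-type cells and 8.76 FPKM in mutant cells, and Atr at 5.21 and 5.75 FPKM, a ratio of 1.52 in both genotypes. The mutant level of Atm was 110.6% of the wild-type level, with a log2 fold change of 0.15 and a q-value of 0.970 in the authors' deposited table. Their target kinases lay below 0, Chek1 at -0.013 and Chek2 at -0.11. Of all genes kept, 93.0% had a difference at least as large as that of Chek1 and 46.4% as that of Chek2. The shares were 40.0% for Atm and 42.4% for Atr. Chek1, the kinase downstream of ATR, was at 22.2 FPKM in wild-type cells and 21.96 FPKM in mutant cells, and Chek2, downstream of ATM, at 25.4 and 23.4 FPKM.

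The chromatin branch of this response runs from H2AX through MDC1 to the ubiquitin ligases RNF8 and RNF168, and its genes differed in value among themselves. H2afx, the histone variant that is phosphorylated beside a break, was at 312 FPKM in wild-type cells and 359.95 FPKM in mutant cells. The authors' deposited table gives H2afx a log2 fold change of 0.20 and a q-value of 0.877. Mdc1, the reader of phosphorylated H2AX, was at 22.6 and 21.7 FPKM. Rnf8, the ligase that acts first, was at 17.603 FPKM in wild-type cells and 17.606 FPKM in mutant cells. Rnf168, the ligase that extends its mark and so creates the docking site of 53BP1, was at 8.46 FPKM in wild-type cells and 11.1 FPKM in mutant cells. This 1.32-fold higher value was the widest gap of the 46 genes, with a log2 fold change of 0.40 and a q-value of 0.308 in the authors' deposited table. Of all genes kept, 5.64% had a difference at least as large. Rnf168 stayed between 0.35 and 0.36 under quantile normalization, median centring and removal of the length trend. All of these rescale the same 1 value per genotype and do not measure spread between libraries.

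Kin was at 19.2 FPKM in wild-type cells and 19.4 FPKM in mutant cells, and lay 0.012 above 0.

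**Figure D3:**
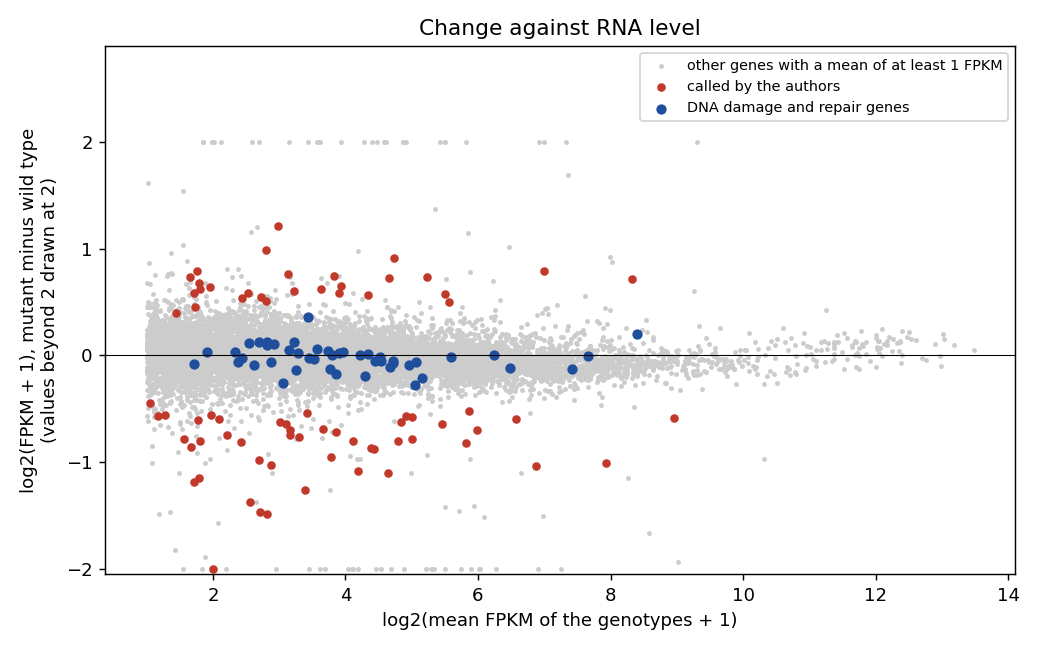
Mutant minus wild-type log2(FPKM + 1) against the log2 of the mean FPKM of the genotypes plus 1, for the 10766 genes kept. Blue points are the 46 DNA damage and repair genes, red points are genes called in the authors' deposited table, and differences beyond 2 are drawn at 2. The blue points lie between -0.28 and 0.36, inside the grey cloud.

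The more abundant repair genes lay mostly below 0. Of the 16 genes whose mean was 20 FPKM or more, a level chosen after the values were seen, 14 lay below 0, and H2afx and Xrcc5 above. Of the 3813 genes of the whole table at this level, 62.7% lay below 0. Of the 30 repair genes under 20 FPKM, 12 lay below 0 (40.0%), beside 43.6% of the genes of the table at that level. Xrcc6 and Parp1, 2 of the 14, moved above 0 with quantile normalization. Across the 46 genes the Spearman correlation of difference and mean level was -0.31, and across 10132 genes of the table with an annotated length it was -0.19. These values describe genes that share their libraries.

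None of the other genes examined in these pathways was called either, beside 0.718% of the 11276 genes whose q-value was below 1. A list of 112 symbols, among them older names, gave 109 genes in the table, of which 105 had a mean of 1 FPKM or more. The 4 below that level were Dntt, listed at 0 in both genotypes, Parp3, Neil3 and Uvssa. Their lowest q-value in the authors' deposited table was 0.556, for Poll. Among the genes kept, 50.4% lay below 0: 62.7% at a mean of 20 FPKM or more and 43.6% under that mean. Of the 105 genes, which were not split by level, 67 lay below 0 (63.8%), with a median of -0.032. The share below 0 was 6 of 11 genes for end joining, 25 of 38 for homologous recombination, 12 of 16 for base excision, 12 of 20 for mismatch and nucleotide excision and 12 of 20 for the checkpoint.

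The widest gaps of this list were in a polymerase and a glycosylase on the lower side. Poll, a gap-filling polymerase of end joining, was at 8.17 FPKM in wild-type cells and 6.23 FPKM in mutant cells. Mutyh, which removes adenine opposite oxidised guanine, was at 9.06 and 7.06 FPKM. On the upper side, Fancf, of the Fanconi core complex, was at 2.38 FPKM in wild-type cells and 3.19 FPKM in mutant cells. Topbp1, the activator of ATR, was at 35.2 and 42.2 FPKM. The authors' deposited table gives Mutyh, Fancf and Topbp1 q-values of 0.716, 0.872 and 0.709.

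**Figure D4:**
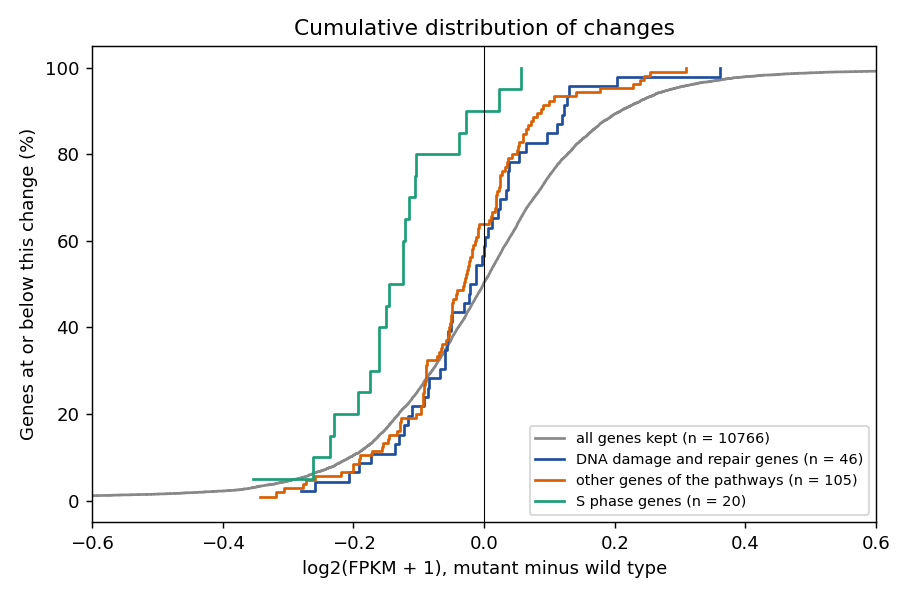
Cumulative share of genes, in percent, by mutant minus wild-type log2(FPKM + 1), for the 46 DNA damage and repair genes, 105 other genes of the same pathways, 20 S phase genes and all 10766 genes kept. The curves of both repair lists are steeper than that of all genes and cross 0 at 56.5% and 63.8%, while 18 of the 20 S phase genes lie below 0. Of the genes kept, 50.4% lie below 0, and 62.7% of those with a mean of 20 FPKM or more (not drawn).

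Reads of overlapping genes cannot be separated with certainty here. By GENCODE M21 annotation, 9 of the 46 genes share at least 5% of their exonic bases with another of the genes kept. Apex1 has the highest share, given above. Next among these 9 are Lig3, with 25.1% shared with Rffl, and Ercc2, with 17.8% shared with Klc3. Rffl was at 3.46 FPKM in wild-type cells and 4.31 FPKM in mutant cells, and Klc3 at 7.48 and 8.05 FPKM. Fanci, Rad54l, Trp53bp1, Ogg1, Fanca and Xrcc6 share between 7.69% and 15.95%. Rad54b shares 35.8% of its exonic bases with Fsbp on the same strand, which was under the level of the genes kept, at 0.735 and 0.773 FPKM, and Rnf8 shares 13.2% with Gm28043 on the same strand, for which no value was analysed. Ercc2 also shares 24.6% with Gm26852 on the opposite strand, likewise without a value here. The same holds for H2afx, with 10.2% shared with Gm44335, and for Palb2, with 5.64% shared with Gm16326. The values of all these genes are uncertain to an extent that these shares do not measure, and the part of the overlaps in the differences was not tested.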

How the data were processed

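RNA of 4 libraries, 2 per genotype, was sequenced by the authors. According to the submitters' processing notes, the reads went through bcl2fastq (2.17.1.14), TopHat2 (2.1.0) and Cufflinks on mouse build mm9. No source used here names the annotation or the Cufflinks version. The authors deposited 1 table with an FPKM value per gene and genotype, and, per the file headers, the log2 fold change (mutant divided by wild type) with its q-value and call. For the 46 genes the deposited log2 fold change equals the plain log2 ratio of FPKM values within 0.001. Depth per library is unknown, which leaves precision unknown.

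Differences were computed as log2(FPKM + 1), mutant minus wild type, which understates those of low genes; genes whose mean FPKM was 1 or more were kept (Python 3.11.15, pandas 2.3.3). With 1 value per genotype no test across libraries was run, and significance of any gene is that of the authors' call across all genes. The summaries were checked on simulated data. Member and pathway lists were chosen with earlier results of these data known. All 46 genes are named; fold changes and q-values are given for the 3 widest differences in each direction, and of the other pathway genes the 2 widest in each direction are named. Symbols were matched to RefSeq promoters (GRCm38.p6) and GENCODE M21, another build than mm9. Transcript length is that of the longest annotated transcript. Alternatives were another pseudocount, other filters and q thresholds, median centring and quantile normalization, and a correction for transcript length.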

Additional observations from a re-analysis of the deposited data

How the results depend on the processing

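No paired analysis was possible because the table holds 1 value per genotype and none per lot; leaving out each library could not be run for the same reason. The count of calls was 0 among the 46 genes and among the 109 other pathway genes. It was 0 also at a q of at most 0.02 or 0.2 and with calls limited to a mean of 5 FPKM or more. These settings could give no other result. The lowest q-values of the lists were 0.308 and 0.556 in the authors' deposited table, and a limit on level can only remove calls. The number of the 46 genes below 0 was between 23 (of the 40 whose mean was 5 FPKM or more) and 29. The median difference of the 46 genes, -0.017, was -0.011 with quantile normalization and -0.027 after the median of 5 bins of transcript length was removed, a setting chosen after seeing the data. Other settings left it between -0.019 and -0.016. The end joining median, -0.0029, was 0.029 with quantile normalization; the cause was not tested. Other group medians kept their sign where they moved by over 1.5 times. With quantile normalization that of base excision went from -0.060 to -0.027, that of mismatch and nucleotide excision from -0.086 to -0.041 and that of homologous recombination from -0.024 to -0.040. With the length correction those of base excision, mismatch and nucleotide excision, the checkpoint and end joining were -0.037, -0.048, 0.027 and -0.0046. At a mean of 5 FPKM or more the homologous recombination median was -0.014 and that of end joining, over 3 genes, -0.012. With the median of all genes set to 0 that of end joining was -0.0017. Quantile normalization changed the sign of 2 genes, Xrcc6 and Parp1, and the length correction that of 5, Prkdc, Brca1, Lig3, Ogg1 and Rnf8. The median over all genes kept moved by less than 0.1 in every setting. Depth limits every value here to an unknown extent.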

Other observations

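Differences varied with transcript length over the whole table. With 10132 genes kept that had an annotated length split into 5 bins, the median of mutant minus wild-type log2(FPKM + 1) was -0.044 in the bin of shortest transcripts (up to 1826 bases) and 0.044 in that of the longest (from 5041 bases). Among the 46 repair genes, whose median length was 3909 bases beside 3205 bases for the genes kept, 4 of 6 in the shortest bin and 7 of 14 in the longest lay below 0. Their median was -0.058 in the shortest bin and -0.011 in the longest. The Spearman correlation of difference and length was 0.19 across the 46 genes and 0.18 across the 10132, as a description of genes that share their libraries. Long transcripts lay on both sides of 0: Atm (9819 bases) was at 0.13 and Brca2 (10724 bases) at 0.053, while Trp53bp1 (9621 bases) was at -0.17 and Mdc1 (7335 bases) at -0.055. After removal of the length trend these 4 were at 0.085, 0.0089, -0.22 and -0.099.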
